A study of Mus musculus with 23 samples.

Results

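The skeletal myosin heavy chain genes are Myh1, Myh2, Myh3, Myh4, Myh7 and Myh8. They were chosen by gene name, 6 of the 54446 genes of a raw count table, and 5 of them are among the 15624 genes of a second table, in which Myh7 is not listed. Libraries were made from mouse skeletal muscle, some of it innervated and some denervated for 10 d. The first set holds 3 libraries of innervated muscle from WT mice, 3 of denervated muscle from WT mice and 3 of denervated muscle from PAX4 KO mice. The second set holds denervated muscle only: 2 libraries of WT controls, 3 of mice labelled NRF1PAL KD (NRF1 KD below) and 3 labelled NRF1PAL-PAX4 double KD (double KD below). The labels name no muscle, age, sex or strain and no means of knockout or knockdown, and nothing in them says whether libraries came from separate animals, so p-values reflect only how far libraries spread, which may be technical.

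A muscle fibre is built mostly of sarcomeres, in which myosin heavy chains form the thick filament and pull on actin by hydrolysing ATP. Each heavy chain gene gives a motor of its own speed. Myh4 encodes the fastest adult chain (type IIb), Myh1 the type IIx chain, Myh2 the slower and more fatigue-resistant type IIa chain, and Myh7 the slow type I chain, which the heart also uses. Myh3 encodes the embryonic and Myh8 the perinatal chain, which are made in developing and regenerating muscle and are low in adult limb muscle. The nerve's firing pattern sets which adult genes a fibre uses, so the family is a standard readout of fibre type after denervation. PAX4 and NRF1 are transcription factors, and the series title places both with the control of proteasome genes.

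Reads assigned to genes numbered 21716216 to 42821396 a library in the first set and 23740769 to 30165765 in the second. The skeletal fibre markers were present throughout (7 of 7), with a summed level of 66550 to 73320 CPM in innervated, 46090 to 58320 in denervated WT and 40760 to 54190 in denervated PAX4 KO muscle. Pax4 had no read in any of the 9 libraries of the first set (count 0) and is not listed in the second, so its level does not check the PAX4 labels. Nrf1 mRNA, at 444 to 488 normalised counts in the WT controls, was at 476 to 524 in NRF1 KD and at 427 to 454 in double KD, with log2 fold changes of 0.10 ± 0.12 (SE, limma adjusted p = 0.618) and -0.07 ± 0.12 (adjusted p = 0.784), so these groups are named by their labels only. Library 2 of the innervated group stood apart in the genes described here. Several values that rest on it are also given without it or with their range over alternative settings.

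Myh1, Myh2, Myh3, Myh4 and Myh8 lie head to tail on the plus strand of chromosome 11 and Myh7 lies alone on the minus strand of chromosome 14 (GRCm38, GENCODE annotation). In order along the chromosome, Myh3 (ENSMUSG00000020908.14) spans chr11:67078300-67102291, Myh2 (ENSMUSG00000033196.17) chr11:67171027-67197517, Myh1 (ENSMUSG00000056328.14) chr11:67200052-67224575, Myh4 (ENSMUSG00000057003.12) chr11:67238029-67260446 and Myh8 (ENSMUSG00000055775.16) chr11:67277124-67308634. Myh7 (ENSMUSG00000053093.16) spans chr14:54970684-54994626.

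The promoters of the 5 clustered genes are shown because these genes sit side by side and moved in opposite directions after denervation. Each line is the 250 bases before the RefSeq start (GRCm38.p6, plus strand, 5′ to 3′). For Myh1 and Myh4 that start differs from the start of the GENCODE span given above. Capitals mark matches to the MEF2 consensus (TTATTTATAG), a 14-base stretch that 4 of the genes share (TTCTAATTATATCC) and a TATAAA near the start. The windows are chr11:67199852-67200101 for Myh1, chr11:67237562-67237811 for Myh4, chr11:67170777-67171026 for Myh2, chr11:67276874-67277123 for Myh8 and chr11:67078050-67078299 for Myh3.
Myh1: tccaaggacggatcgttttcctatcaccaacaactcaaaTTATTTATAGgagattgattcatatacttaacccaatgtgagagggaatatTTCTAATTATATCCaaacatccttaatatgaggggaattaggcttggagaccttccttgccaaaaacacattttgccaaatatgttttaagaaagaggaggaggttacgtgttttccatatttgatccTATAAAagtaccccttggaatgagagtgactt
Myh4: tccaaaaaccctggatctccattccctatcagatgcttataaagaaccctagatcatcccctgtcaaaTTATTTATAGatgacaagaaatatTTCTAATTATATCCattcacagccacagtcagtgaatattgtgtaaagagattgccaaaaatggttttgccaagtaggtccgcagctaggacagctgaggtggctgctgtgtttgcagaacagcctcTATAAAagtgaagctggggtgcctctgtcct
Myh2: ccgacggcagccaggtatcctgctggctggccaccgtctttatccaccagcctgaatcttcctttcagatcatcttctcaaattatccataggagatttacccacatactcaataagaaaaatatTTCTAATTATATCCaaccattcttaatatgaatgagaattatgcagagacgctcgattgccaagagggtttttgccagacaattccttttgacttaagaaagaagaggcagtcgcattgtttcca
Myh8: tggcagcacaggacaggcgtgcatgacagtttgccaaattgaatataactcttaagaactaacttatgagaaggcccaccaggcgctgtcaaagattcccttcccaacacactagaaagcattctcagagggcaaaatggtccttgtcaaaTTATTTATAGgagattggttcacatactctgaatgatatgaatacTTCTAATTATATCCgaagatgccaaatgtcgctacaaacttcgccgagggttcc
Myh3: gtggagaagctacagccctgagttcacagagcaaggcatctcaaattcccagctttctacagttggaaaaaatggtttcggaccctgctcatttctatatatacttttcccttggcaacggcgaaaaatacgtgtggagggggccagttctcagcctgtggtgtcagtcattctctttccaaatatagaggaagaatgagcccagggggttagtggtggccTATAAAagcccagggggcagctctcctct
The shared stretch starts 160 bases before the start of Myh1, 158 before Myh4, 125 before Myh2 and 54 before Myh8. Among 32841 RefSeq promoter windows of 300 bases (250 before to 50 after the start) it occurs in 4, or 0.0122%. It is thus in 2 genes that fell after denervation (Myh1, Myh4) and in 2 that rose (Myh2, Myh8). The MEF2 consensus, searched by name on both strands, is 211 bases before Myh1, 182 before Myh4 and 99 before Myh8, and 3.19% of all windows hold it. TATAAA, which on the opposite strand overlaps the MEF2 match, is on the gene's strand 32 bases before Myh1, 31 before Myh4 and 29 before Myh3, and 8.32% of windows hold it on that strand. In Myh2 it lies 10 bases past the RefSeq start, outside the stretch printed. An E-box (CANNTG) is in the windows of Myh3, Myh4, Myh7 and Myh8 and in 72.3% of all windows, and a CArG box lies 104 bases before Myh4 and in 1.63%. These are letter matches and not measured binding sites.

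In innervated muscle the family was almost wholly type IIb and type IIx. Levels are in CPM, counts relative to TMM-scaled library size. Myh4 stood at 29086, 12241 and 30785 CPM in innervated libraries 1 to 3, and Myh1 at 5617, 8481 and 7991 CPM. Myh2 followed at 669, 1775 and 799 CPM. Library 2 had the lowest Myh4 and the highest Myh2 of the 3. Myh8 stood at 34.0, 44.3 and 46.2 CPM and Myh3 at 0.640, 25.2 and 1.43 CPM, the high value again in library 2. Myh7 had 9, 50 and 38 reads, or 0.443 to 1.37 CPM, so the mRNA of this slow chain was near the lower end of what these libraries could measure.

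To compare genes with each other, counts were divided by the length of the longest annotated transcript, which runs from 6.016 to 6.23 kb, and given as shares of the 6 genes' sum per kb. In innervated muscle the mean shares ran Myh4 71.6%, Myh1 24.4%, Myh2 3.90%, Myh8 0.134%, Myh3 0.0391% and Myh7 0.00345%, and of the neighbours in that order Myh8 and Myh3 overlapped in range, as did Myh3 and Myh7. Without innervated library 2 the means were Myh4 80.1%, Myh1 17.9%, Myh2 1.94%, Myh8 0.104%, Myh3 0.00271% and Myh7 0.00222%. In denervated WT muscle they ran Myh4 51.4%, Myh2 24.4%, Myh1 22.9%, Myh3 0.787%, Myh8 0.591% and Myh7 0.00623%, with Myh2 and Myh1 overlapping, and Myh3 and Myh8. In denervated PAX4 KO muscle Myh2 at 34.7% overlapped both Myh4 at 39.2% and Myh1 at 24.01%, and Myh3 at 1.26% overlapped Myh8 at 0.917%, with Myh7 at 0.0136%.

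**Figure D1:**
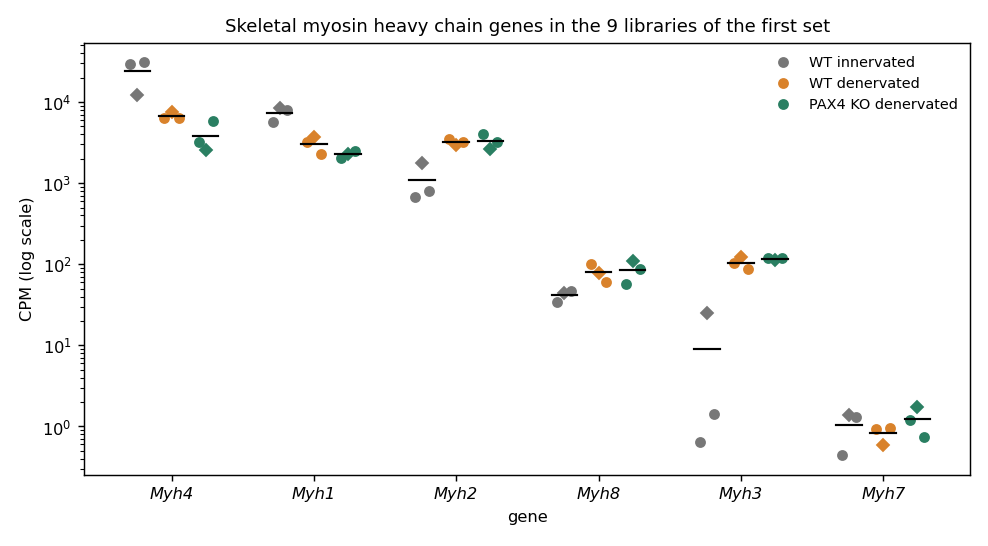
Level of each skeletal myosin heavy chain gene in CPM (log axis) in each library of the first set, with a black line at the group mean and diamonds for library 2 of each group. Myh1 and Myh4 sit lower and Myh2, Myh3 and Myh8 higher in both denervated groups than in innervated muscle, with innervated library 2 nearest to the denervated libraries for Myh2, Myh3 and Myh4, while Myh7 stays near 1 CPM.

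Denervation of WT muscle was compared first. Of the 6 genes, 5 were called by edgeR's quasi-likelihood F test at a Benjamini-Hochberg adjusted p under 0.05 over 16146 genes: the fast chains Myh4 and Myh1 fell, and Myh2, Myh3 and Myh8 rose. Over all genes tested 32.3% were called in this comparison, 16.5% higher and 15.8% lower. In all 5 the denervated and innervated libraries did not overlap, as in 46.6% of all genes.

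Myh4, the type IIb chain, stood at 6343, 7524 and 6359 CPM in the denervated libraries against 12241 to 30785 CPM in innervated muscle. Every denervated library lay below every innervated one. The mean fell from 24038 ± 10251 to 6742 ± 677 CPM (SD, n = 3 each), 3.57-fold lower, and the log2 fold change was -1.83 ± 0.38 (SE, edgeR adjusted p = 0.00523). Over the alternative settings run, which include leaving out single libraries, it ranged from -2.15 to -1.62, with a call in each. Myh1, the type IIx chain, stood at 3176, 3720 and 2292 CPM after denervation, below the 5617 CPM of the lowest innervated library. Its log2 fold change was -1.27 ± 0.22 (edgeR adjusted p = 0.00223), 2.40-fold lower.

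Myh2, the type IIa chain, stood at 3512, 2910 and 3203 CPM after denervation, above the 1775 CPM of the highest innervated library. Its mean rose from 1081 ± 604 to 3208 ± 300.97 CPM (SD, n = 3 each), with a log2 fold change of 1.57 ± 0.33 (SE, edgeR adjusted p = 0.00573). Denervated muscle therefore held about as many reads of Myh2 as of Myh1, at group means of 3208 and 3063 CPM. Over the alternative settings run, the log2 fold change of Myh2 ranged from 1.31 to 2.13, with a call in each. In bulk muscle, a change in the number of fibres or cells of a type and a change in the RNA of each cannot be told apart.

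The developmental chains also rose. Myh3, the embryonic chain, was at 102, 122 and 87.8 CPM in denervated muscle, and all 3 lay above the 25.2 CPM of innervated library 2. The log2 fold change was 3.47 ± 0.92 (SE, edgeR adjusted p = 0.0166, 95% interval 1.42 to 5.52), or 11.1-fold. Its size rests on innervated library 2, and without that library it was 6.59 (edgeR adjusted p = 2.93e-06), while limma-voom on all libraries gave 4.82. Myh8, the perinatal chain, was at 100.03, 77.6 and 60.8 CPM, above the 46.2 CPM of the highest innervated library, with a log2 fold change of 0.94 ± 0.25 (edgeR adjusted p = 0.0161), 1.91-fold. Its call was lost without innervated library 1 (log2 fold change 0.81, adjusted p = 0.0684) and without denervated library 1 (0.74, adjusted p = 0.0544), the denervated library with the highest Myh8.

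Myh7, the slow chain, had 39, 21 and 37 reads in the denervated libraries, or 0.587 to 0.968 CPM, within the innervated range. Its log2 fold change was -0.36 ± 0.45 (SE, edgeR adjusted p = 0.575), with a 95% interval from -1.35 to 0.63. With so few reads a 2-fold lower level lay within that interval and would not have been told from no change.

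**Figure D2:**
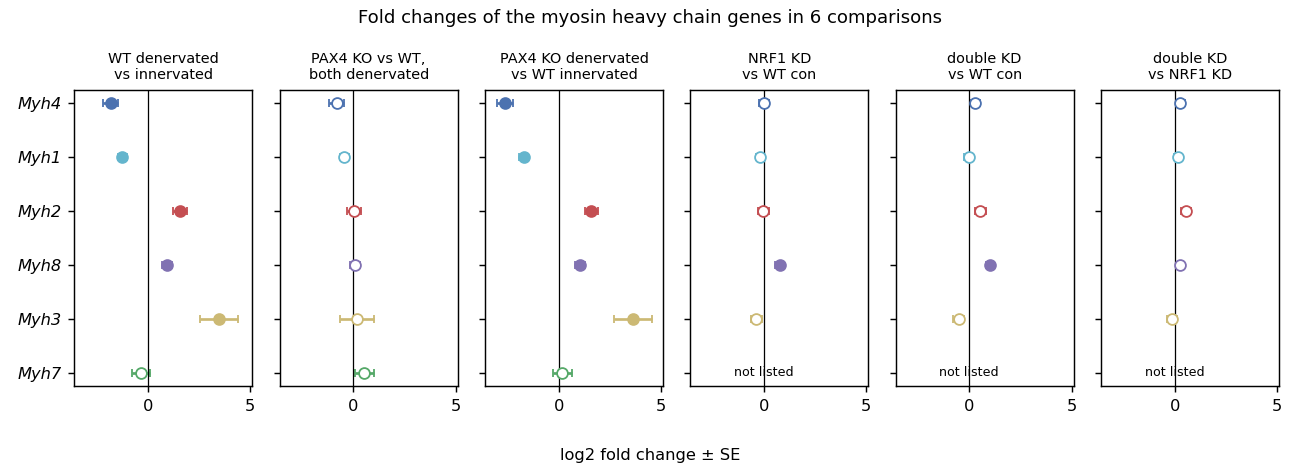
Log2 fold change with its standard error for each skeletal myosin heavy chain gene in the 6 comparisons of the study, filled where the adjusted p is under 0.05. Fills are at Myh1, Myh2, Myh3, Myh4 and Myh8 in the comparisons of denervated with innervated muscle and at Myh8 in the comparisons of the knockdowns with WT controls, and Myh7 is not listed in the second set.

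The family as a whole took a smaller part of the library after denervation. Its 6 genes made up 2.92%, 1.92% and 3.25% of all counts in innervated muscle and 1.43%, 1.40% and 1.25% in denervated WT muscle, without overlap. Within the family, the share of Myh4 went from 82.1%, 54.2% and 77.7% of the summed counts to 47.9%, 52.4% and 53.0%. The share of Myh2 went from 1.89%, 7.86% and 2.02% to 26.5%, 20.3% and 26.7%, a rise in mean share of 20.6 percentage points. Myh1 lost counts, while its mean shares of 24.5% ± 11.5 and 23.0% ± 3.52 (SD, n = 3 each) overlapped. This rests on innervated library 2, at 37.6% against 15.9% and 20.2%: without it the difference of Myh1 turned from -1.53 to 4.99 percentage points, and that of Myh4 went from -20.25 to -28.8. An exact two-sided permutation test of 3 libraries against 3 cannot give a p below 0.1, which it gave for Myh2, Myh3, Myh4 and Myh8 (adjusted p = 0.3 over the 33 share tests of all comparisons).

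**Figure D3:**
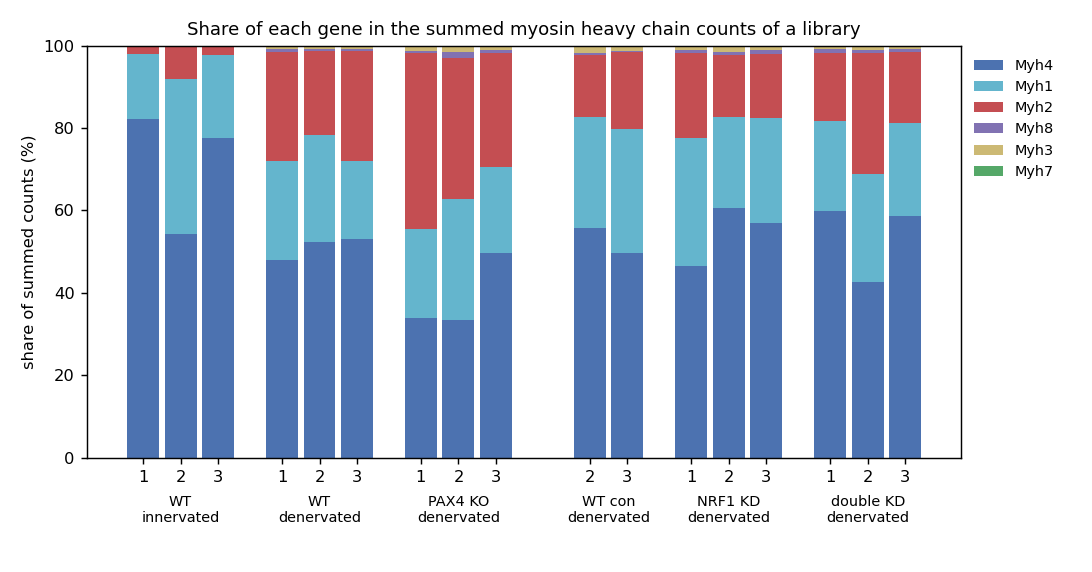
Share of each skeletal myosin heavy chain gene in the summed counts of the family, as stacked bars from 0 to 100% for the 17 libraries of both sets. Myh4 takes 54.2% to 82.1% in innervated muscle and 33.3% to 60.6% in all denervated libraries, where Myh2 takes 14.98% to 42.5%.

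The log2 ratio of Myh2 to Myh4 within a library, which does not depend on library scaling, was -5.44, -2.79 and -5.27 in innervated muscle and -0.85, -1.37 and -0.99 in denervated WT muscle. The groups did not overlap, and the mean difference of 3.43 equals a 10.8-fold change of the ratio (exact permutation p = 0.1, the smallest possible, adjusted p = 0.375 over 15 ratio tests). Without innervated library 2 the difference was 4.28. The ratio of Myh1 to Myh4 overlapped between the groups, with a mean log2 difference of 0.45 (exact permutation p = 0.5). That overlap came from innervated library 2, without which the groups did not overlap and the difference was 0.997.

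Denervated PAX4 KO muscle was then compared with denervated WT muscle, which asks whether the myosin pattern of denervated muscle differs between the labelled genotypes. There is no innervated PAX4 KO muscle in the series. A difference present before denervation therefore cannot be told apart from a difference in the response to it. None of the 6 genes was called by edgeR or limma-voom, nor any of the 5 to which DESeq2 gave an adjusted p (it gave none to Myh3), and none had an unadjusted edgeR p under 0.05. Only 0.0186% of all genes tested were called in this comparison, 3 higher and 0 lower, while 2089 had an unadjusted p under 0.05. DESeq2 called 127 genes higher and 65 lower over all genes.

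Myh4 was nearest to a call. It stood at 3192, 2546 and 5787 CPM in PAX4 KO muscle against 6343, 7524 and 6359 CPM in WT muscle. The libraries did not overlap, which held for Myh4 alone among the 6 genes and for 7.23% of all genes in that direction, and 16.9% in either. PAX4 KO library 3 lay close under the WT libraries. The log2 fold change was -0.81 ± 0.37 (SE, edgeR adjusted p = 0.395), with a 95% interval from -1.64 to 0.01. The authors' deposited table gives -0.83 and an adjusted p of 0.410 for the same gene.

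The other genes overlapped between the genotypes. Myh1 stood at 2058, 2254 and 2455 CPM in PAX4 KO muscle, with a log2 fold change of -0.44 ± 0.22 (SE, edgeR adjusted p = 0.418). Myh2 stood at 4018, 2613 and 3225 CPM, with a log2 fold change of 0.03 ± 0.33 (edgeR adjusted p = 0.972) and a 95% interval from -0.69 to 0.76. Myh3 was even among the PAX4 KO libraries, at 118, 113 and 120 CPM, while Myh8 was spread, at 56.4, 110.1 and 87.98 CPM. Their log2 fold changes were 0.17 ± 0.83 (interval -1.66 to 2.00) and 0.09 ± 0.24 (interval -0.45 to 0.64), and Myh7, at 0.733 to 1.75 CPM, gave 0.55 ± 0.44.

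The mix within the family was compared next. Myh2 made up 42.5%, 34.2% and 27.6% of the summed counts in PAX4 KO muscle, against 20.3% to 26.7% in WT muscle, a mean difference of 10.3 percentage points without overlap, and of 6.42 points without PAX4 KO library 1. Myh3 was also higher in share, at 1.25%, 1.48% and 1.03% against 0.732% to 0.849%. For the shares of both genes the exact permutation p was 0.1, the smallest possible (adjusted p = 0.3 over 33 share tests). The level of Myh2 itself was not called, as given above. Myh4 made up 33.8%, 33.3% and 49.6% and overlapped the 47.9% to 53.0% of WT muscle. Myh2 exceeded Myh4 in PAX4 KO libraries 1 and 2, at log2 ratios of 0.33 and 0.04, and not in library 3, at -0.84, just above the highest WT ratio of -0.85. The mean log2 difference in the ratio was 0.91, or 1.88-fold, with the smallest p that 3 against 3 libraries allow (exact permutation p = 0.1, adjusted p = 0.375).

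**Figure D4:**
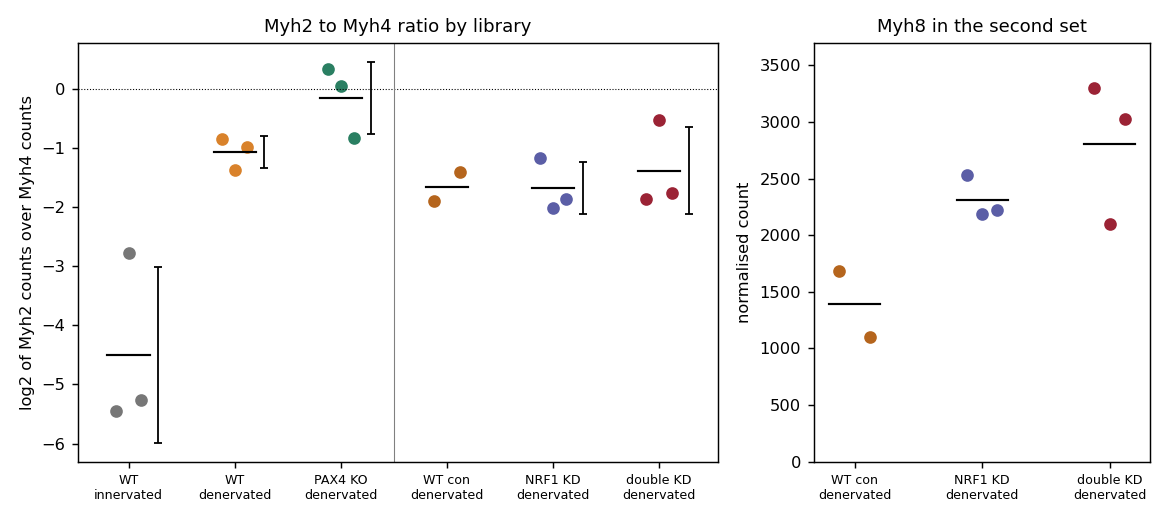
Left, the log2 ratio of Myh2 to Myh4 counts in each of the 17 libraries, with the group mean as a line and the SD as a bar for groups of 3; right, Myh8 in normalised counts in each library of the second set. The ratio lies between -5.44 and -2.79 in innervated muscle and between -2.01 and 0.33 in denervated muscle, and all 6 knockdown libraries hold more Myh8 than both WT controls.

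Against innervated WT muscle, PAX4 KO denervated muscle had calls in the 5 genes called after WT denervation, each in the direction given there. Here 40% of all genes tested were called, 21.8% higher and 18.2% lower, and the comparison shares the innervated libraries with that of WT muscle. The 5 genes did not overlap between the groups, as did 52.3% of all genes. Myh4 was 6.26-fold lower (log2 fold change -2.65 ± 0.39, edgeR adjusted p = 0.000735) and Myh1 3.27-fold lower (-1.71 ± 0.22, adjusted p = 0.000397). Myh2 was 3.04-fold higher (1.60 ± 0.33, adjusted p = 0.00416), Myh8 2.04-fold (1.03 ± 0.25, adjusted p = 0.00834) and Myh3 12.5-fold (3.64 ± 0.93, adjusted p = 0.0110). Without innervated library 2 the log2 fold change of Myh3 was 6.76. Over the alternative settings run, that of Myh2 ranged from 1.34 to 2.16 and that of Myh4 from -3.07 to -2.42. Myh7 was not called, at 0.19 ± 0.44 (adjusted p = 0.765).

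The second set has no innervated muscle and asks how the myosin pattern of denervated muscle differs in NRF1 KD and double KD muscle. Its values are normalised counts, which were recovered from the log2 values the authors deposited and tested with limma. Myh8 was the only 1 of the 5 listed genes called, and it was higher in both knockdown groups than in WT controls. Over all genes tested 11.3% were called in NRF1 KD (7.58% higher, 3.72% lower) and 4.08% in double KD (2.39% higher, 1.7% lower). These counts rest on single libraries: without WT control 2 the genes called went from 1184 higher and 581 lower to 415 and 156 in NRF1 KD, and from 373 and 265 to 46 and 40 in double KD.

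In normalised counts, Myh8 measured 1683 and 1104 in the WT controls, 2530, 2186 and 2224 in NRF1 KD and 3299, 2102 and 3028 in double KD. All 6 knockdown libraries lay above both controls. Such a gap in this direction was seen in 22.5% of all genes for NRF1 KD (45.9% in either direction) and in 18.1% for double KD (35.7%). The log2 fold change was 0.76 ± 0.21 in NRF1 KD (SE, limma adjusted p = 0.0404), 1.69-fold, and 1.02 ± 0.21 in double KD (limma adjusted p = 0.0266), 2.02-fold. The authors' deposited table gives 0.73 (adjusted p = 0.00572) and 1.01 (adjusted p = 0.000104). The call in NRF1 KD was lost without WT control 3 (0.46, limma adjusted p = 0.223) and without any 1 of the NRF1 KD libraries (adjusted p from 0.0839 to 0.108). In double KD it was lost without WT control 3 (0.71, limma adjusted p = 0.0974) and without double KD library 3 (adjusted p = 0.0590), and with only the 2 groups in the fit (adjusted p = 0.0732).

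The embryonic chain was not called in either knockdown group. Its normalised counts were 4734 and 3258 in WT controls, 2872, 4388 and 2190 in NRF1 KD and 2175, 3394 and 2844 in double KD. The log2 fold changes of Myh3 were -0.38 ± 0.27 (SE, limma adjusted p = 0.407) and -0.51 ± 0.27 (adjusted p = 0.319), with intervals from -0.99 to 0.23 and from -1.12 to 0.10. Myh3 thus lay on the other side of 0 from Myh8 in both comparisons, without a call.

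The adult fast chains overlapped between the groups. Myh4 stood at 158973 and 139283 normalised counts in WT controls, at 131721 to 185786 in NRF1 KD and at 142730 to 231546 in double KD. Myh1 stood at 76933 and 85102 in controls and between 58682 and 89227 in the 6 knockdown libraries. Myh2 stood at 42711 and 52138 in controls, at 36237 to 59293 in NRF1 KD and at 48373, 98669 and 68323 in double KD, where library 2 was the highest of all. The largest of their log2 fold changes was that of Myh2 in double KD, 0.54 ± 0.28 (SE, limma adjusted p = 0.298, interval -0.08 to 1.17). In NRF1 KD the intervals ran from -0.66 to 0.27 for Myh1, from -0.65 to 0.60 for Myh2 and from -0.54 to 0.54 for Myh4.

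Double KD and NRF1 KD muscle were also set against each other. None of the 5 genes was called by limma or by edgeR on recovered reads, against 0.134% of all genes tested (0.0768% higher, 0.0576% lower). Only Myh2 had an unadjusted p under 0.05, with a log2 fold change of 0.57 ± 0.25 (SE, limma adjusted p = 0.428). For none of the 5 were the 2 groups without overlap, as they were for 16.3% of all genes. Myh8 differed by 0.26 ± 0.18 (limma adjusted p = 0.635). In the family's mix, the log2 ratio of Myh2 to Myh4 was -1.90 and -1.42 in WT controls, -1.18, -2.01 and -1.86 in NRF1 KD and -1.86, -0.53 and -1.76 in double KD, with double KD library 2 the highest.

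Markers of other cell types moved in the same comparisons. In the first set the summed level of 6 macrophage markers was 47.4 to 139 CPM in innervated, 182 to 323 in denervated WT and 345 to 482 in PAX4 KO muscle. That of 5 Schwann cell markers was 71.5 to 135, 12.01 to 18.4 and 13.4 to 16.8 CPM. In the same order, 4 neutrophil markers summed to 1.95 to 3.56, 19.98 to 129 and 27.15 to 49.5 CPM. The 5 fibroblast markers summed to 1485 to 1989, 1417 to 1859 and 2229 to 5764 CPM. After denervation of WT muscle 5 of 5 endothelial, 4 of 5 smooth muscle and 3 of 5 adipocyte markers were called lower, and 5 of 6 macrophage markers higher. In the second set the macrophage sum was 3520 to 4451 normalised counts in WT controls, 7460 to 14090 in NRF1 KD and 6288 to 9794 in double KD, with 6 of 6 markers called higher in NRF1 KD and 1 of 6 in double KD. The 3 neutrophil markers listed there summed to 2002 to 2868, 893 to 1166 and 657 to 1566 normalised counts. Of these, 2 were called higher and 1, S100a8, lower in NRF1 KD, and 0 higher and 1, S100a8, lower in double KD. The 5 fibroblast markers summed to 18250 to 35620, 41270 to 64970 and 32970 to 71430 normalised counts, none at 0. The part of these cell types in the myosin results was not tested. The 5 cardiac markers, of which Myh6 is 1, summed to 2.61 to 3.32 CPM in innervated muscle, with Nppa, Myl7 and Mybpc3 at 0, to 0.890 to 1.13 in denervated WT and to 0.958 to 1.13 in PAX4 KO muscle. In the second set, where 4 of the 5 are listed, they summed to 36.9 to 40.3 normalised counts in WT controls, with Nppa at 0, to 61.0 to 411 in NRF1 KD and to 30.8 to 116.5 in double KD. Nppa was called higher in NRF1 KD (log2 fold change 4.91 ± 1.15, limma adjusted p = 0.0230), while 3 of the 4 were not called. The high NRF1 KD sum was that of library 2, with 93.1 and 61.0 in libraries 1 and 3. In double KD 0 of 4 were called. Actc1 and Casq2, which heart muscle also uses, were higher in both knockdown groups. They come from 2 lists given below, of which most genes were not called. In each group 4 of 5 developmental partners were not called, Tnnt2, the cardiac and fetal troponin T, among them. Of 10 slow partners 9 were not called in NRF1 KD and 8 in double KD. What part heart tissue had was not tested.

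Between Myh3 and Myh13 the chromosome 11 cluster spans 293.3 kb and holds 11 annotated genes. Myh13, the chain of extraocular muscle, had 110, 131 and 180 reads in innervated and 74, 22 and 33 in denervated WT muscle, with a log2 fold change of -2.21 ± 0.40 (SE, edgeR adjusted p = 0.00275). The lincRNA 2310065F04Rik, on the minus strand between Myh3 and Myh2, had 8354, 7228 and 7239 reads in innervated and 819, 630 and 475 in denervated WT muscle. Its log2 fold change of -4.11 ± 0.29 (edgeR adjusted p = 6e-05) was a larger fall than that of Myh4. In PAX4 KO muscle it had 417, 234 and 432 reads, with a log2 fold change of -0.69 (edgeR adjusted p = 0.347). In CPM it lay at 8.52 to 11.8, close under the 12.4 to 19.7 of denervated WT muscle. Of all genes, 7.23% were lower without overlap in this comparison, and 16.9% did not overlap in either direction. The antisense gene Myhas starts on the other strand, 456 bases from the GENCODE start of Myh4. The RefSeq start of Myh4, used for its promoter above, lies nearer to it. Myhas had 178, 635 and 206 reads and then 148, 171 and 62, with a log2 fold change of -1.75 ± 0.42 (edgeR adjusted p = 0.0101). Myhas overlaps Myh1 by 13320 bases, and since strandedness is not given in the sources used here its reads and those of Myh1 cannot be told apart. The antisense gene 9430073C21Rik, which overlaps the end of Myh2, was not called (0.23 ± 0.23, edgeR adjusted p = 0.483), and Mir6923 and Gm26476 had 0 counts.

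**Figure D5:**
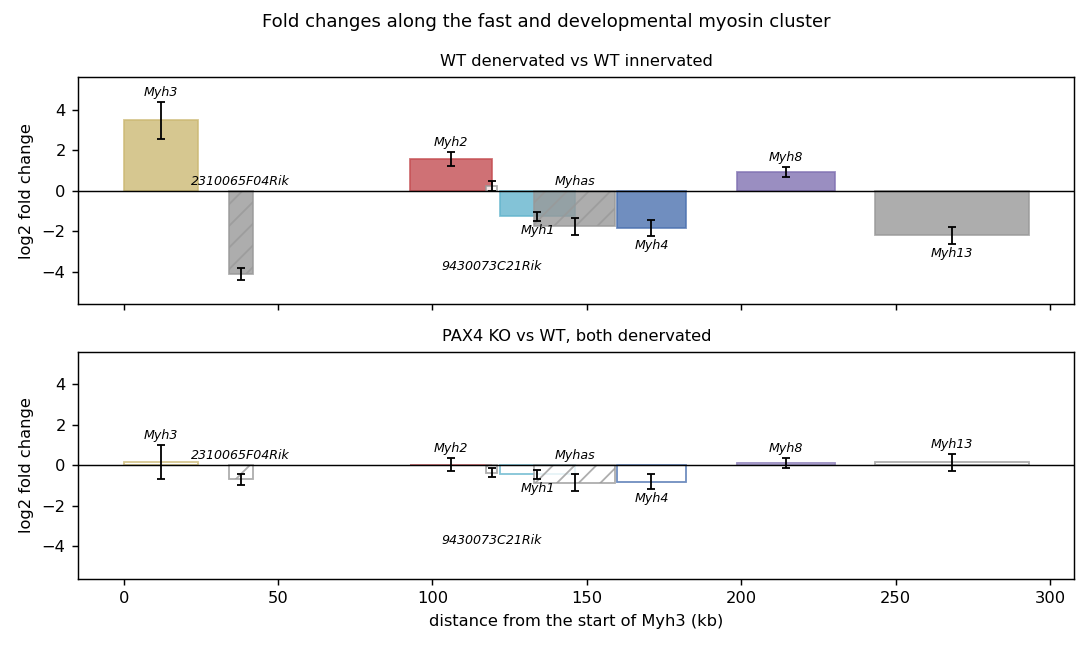
Log2 fold change of the annotated genes of the chromosome 11 myosin cluster, each bar spanning its gene in kb from the start of Myh3, hatched on the minus strand, white where not called and with black bars for the SE. In the upper panel, WT denervated against innervated muscle, genes that rose (Myh3, Myh2, Myh8) lie among genes that fell (2310065F04Rik, Myh1, Myhas, Myh4, Myh13), of which Myh1, Myhas and Myh4 are neighbours. In the lower panel, PAX4 KO against WT denervated muscle, none was called.

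The other myosin heavy chain genes were lower than the adult fast chains in every group. After denervation of WT muscle 1 of 8 rose and 3 fell: the non-muscle chain Myh14 rose from 37.8 ± 1.37 to 66.3 ± 12.2 CPM (log2 fold change 0.81 ± 0.19, edgeR adjusted p = 0.00832), and the atrial chain Myh6 (-2.62 ± 0.38, 2.45 to 0.395 CPM), Myh13 and the smooth muscle chain Myh11 (-0.96 ± 0.20, 113 to 58.1 CPM) fell. Myh9 at 174 and 150 CPM, Myh10 at 31.1 and 50.8, Myh7b at 1.99 and 1.41 and Myh15 at 0.184 and 0.182 CPM were not called by edgeR, though Myh10 was called higher by DESeq2 and by edgeR with no filter on low counts. In the second set Myh14 fell and Myh10, a non-muscle chain, rose in both knockdown groups, with Myh10 at 920 ± 69.5 normalised counts in controls (n = 2), 1824 ± 158 in NRF1 KD and 1975 ± 398 in double KD (n = 3 each). Leaving out WT control 2 ended the calls of Myh10 (limma adjusted p = 0.076) and Myh14 (adjusted p = 0.127) in double KD, and leaving out double KD library 2 that of Myh14 (adjusted p = 0.0559).

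Partner genes of the sarcomere were read by lists, whose counts stand against 16.5% of all genes called higher and 15.8% lower after denervation of WT muscle. Among 11 partners of fast fibres, 7 fell and 1 rose after denervation of WT muscle, with a median log2 fold change of -0.95 against 0.02 over all genes. Mylk2, the kinase of the skeletal myosin light chain, fell from 1208 ± 362 to 95.8 ± 24.05 CPM (-3.66 ± 0.26, edgeR adjusted p = 5.96e-05). Mybpc2, the fast myosin-binding protein C, fell by 3.10 on the log2 scale, while Actn3, the actinin of fast fibres, rose (0.90 ± 0.25, adjusted p = 0.0187). The call of Actn3 was lost without any 1 of innervated libraries 2 and 3 and denervated libraries 2 and 3 (edgeR adjusted p from 0.0504 to 0.0757).

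Among 10 partners of slow fibres, 4 rose and 0 fell, with a median of 0.65. With no filter on low counts edgeR called 5 higher and 1, the slow light chain Myl2, lower. Atp2a2, the slow calcium pump, rose from 55.9 ± 9.99 to 135 ± 15.8 CPM (log2 fold change 1.28 ± 0.15, edgeR adjusted p = 0.000335), and Tnnt1, slow troponin T, rose by 3.24 ± 0.64. These genes rose while the slow chain Myh7 itself was not called. Among 5 developmental partners, 3 rose, Myl4 (an embryonic light chain, 3.14 ± 0.55) and Tnnt2 (the cardiac and fetal troponin T, 2.26 ± 0.48) among them, and Actc1, the cardiac actin, fell (-2.71 ± 0.43). Without innervated library 2 the log2 fold changes were 4.71 for Tnnt1, 4.35 for Myl4 and 3.38 for Tnnt2.

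Of 15 genes for myosin folding and thick filament assembly, 4 rose and 6 fell. Mybph, a myosin-binding protein, rose by 2.59 ± 0.33 and the chaperone Hsp90aa1 by 1.08 ± 0.16, and Mybpc2 and Smyd1, a muscle methyltransferase, fell. Of 17 fibre type regulators 5 rose and 7 fell. Hdac4, a deacetylase induced by denervation, rose (1.47 ± 0.20), as did Rcan1, a calcineurin target (1.45 ± 0.25), and Nr4a3 and Sox6, a repressor of slow genes, fell (-1.46 ± 0.27 and -0.85 ± 0.17). Of 8 myogenic factors and satellite cell genes 7 rose, Myog by 3.98 ± 0.65 and Myf6 by 2.08 ± 0.25 among them, and 0 fell. Without innervated library 2 Myog gave 5.30.

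In PAX4 KO against WT denervated muscle 0 genes of these 7 lists were called by edgeR, with 14 unadjusted p-values under 0.05 among their 73 genes and 1 call, Pvalb lower, by DESeq2. Over all genes, 2089 of the 16146 tested had an unadjusted edgeR p under 0.05. With no filter on low counts edgeR called Myh10, Myl2 and Myl6b higher and Hdac4, Myod1, Pvalb and Trim63 lower. In the main test the values with the smallest p were -0.90 ± 0.24 for Pvalb, the calcium buffer of fast fibres (edgeR adjusted p = 0.276), 0.89 ± 0.26 for the light chain Myl6b, 2.26 ± 0.71 for the slow light chain Myl2, -0.64 ± 0.19 for Hdac4 and 0.81 ± 0.25 for Myh10.

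In NRF1 KD muscle the myogenic factors Myog (log2 fold change -1.01 ± 0.11, limma adjusted p = 0.00194) and Myod1 (-1.12 ± 0.19) were lower than in WT controls, 2 of 8 on that list, with 0 higher. Over all genes 7.58% were called higher and 3.72% lower. Hdac4 (-0.94 ± 0.14) and Mef2a (-0.55 ± 0.13) fell among 17 regulators, and 3 rose, with Vgll2, a transcriptional cofactor (0.82 ± 0.10), and Rcan1 (0.89 ± 0.14) the lowest in adjusted p. Pvalb was 2.15-fold lower as the 1 called of 11 fast partners, and Casq2, the cardiac and slow calsequestrin, rose as the 1 of 10 slow partners (0.96 ± 0.19). Actc1 rose (1.52 ± 0.33), 1 of 5 developmental partners, and 4 of 15 folding and assembly genes fell, Mybph and Trim63 (-0.89 ± 0.12 and -0.77 ± 0.16) with the smallest p. Leaving out 1 library ended the calls of Actc1 (WT control 2 or 3 or NRF1 KD library 2), Casq2 and Myod1 (control 2), Trim63 (control 3 or NRF1 KD library 3) and Mef2a (either control or NRF1 KD library 2 or 3), at limma adjusted p from 0.0508 to 0.141.

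In double KD muscle Myog (-1.004 ± 0.11) and Myod1 (-1.11 ± 0.19) again were lower than in WT controls, and the adhesion molecule Ncam1 was higher (0.46 ± 0.11, limma adjusted p = 0.0453), against 2.39% of all genes higher and 1.7% lower. Vgll2 (1.07 ± 0.10) and Rcan1 (1.00 ± 0.14) were higher and Hdac4 (-0.92 ± 0.14) and Mef2a (-0.68 ± 0.13) lower. Of the slow partners Casq2 (1.35 ± 0.19) and Tnni1 (1.48 ± 0.32) were higher, 2 of 10, and 0 of 11 fast partners were called by limma (Pvalb lower by edgeR on recovered reads). Actc1 rose (1.53 ± 0.33), the 1 of 5 developmental partners, and Trim63 (-1.05 ± 0.16) and Mybph (-0.52 ± 0.12) fell, 2 of 15 folding and assembly genes. Without WT control 2 the calls of Actc1, Casq2, Hdac4, Mef2a, Mybph, Myod1, Ncam1, Rcan1 and Tnni1 were lost (limma adjusted p from 0.05 to 0.301). Without another of the libraries those of Actc1 (control 3 or double KD library 3), Mef2a (control 3 or double KD library 2), Mybph and Ncam1 (any double KD library) and Tnni1 (control 3 or double KD library 3) were lost too. With only the 2 groups in the fit Actc1, Mef2a, Mybph, Ncam1 and Tnni1 lost their calls (limma adjusted p from 0.0538 to 0.101), as did Actc1 and Ncam1 on the deposited log2 values (adjusted p = 0.0517 and 0.0528). Double KD and NRF1 KD share the 2 WT controls, and against each other 0 genes of the 7 lists were called by limma or by edgeR on recovered reads, with 16 unadjusted limma p-values under 0.05. Over all genes, 1756 of the 15624 tested had an unadjusted limma p under 0.05 there.

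Genes whose levels followed each chain most closely were named by Pearson's r of log2(CPM + 1) over the 9 libraries of the first set, among the 8646 genes whose mean reached 8 CPM. The libraries share the large difference between innervated and denervated muscle, so r is a description. Myh4 was nearest to Klhl8 (r = 0.991), Slc38a4 (0.99) and Sox6 (0.99), and over the 8 libraries of the second set, where no muscle is innervated, the same pairs gave 0.17, 0.479 and 0.128. Myh2 was nearest to Cyfip2 (0.988, and 0.124 in the second set), Hspb7 (0.985 and 0.554) and Hectd2os (0.983 and 0.681). Myh3 was nearest to Hspb7 (0.995 and 0.596), Chrna1, the acetylcholine receptor subunit (0.993 and 0.502), and Myom3 (0.992 and 0.0398). Myh1 was nearest to Rpia (0.968 and 0.228), Slc38a3 (0.965 and 0.767) and Rassf3 (0.962 and 0.645), and Myh8 to Btg1 (0.958 and 0.186) and Soat1 (0.955 and 0.474). For Myh7, with few reads, the highest r was 0.908, with Elmo1.

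The 6 mRNAs are alike in sequence, which limits how surely reads can be assigned. Of the 50-base words of each transcript, 26.7% of Myh1, 26.9% of Myh2 and 18.9% of Myh4 also occur in some other gene. For Myh8, Myh7 and Myh3 the values were 21.4%, 22.2% and 4.81%. The gene sharing the most words was Myh2 for Myh1 and Myh8, Myh1 for Myh2 and Myh4, Myh6 for Myh7 and Myh13 for Myh3. At 100 bases the shares were 9.73%, 9.17%, 3.85%, 6.61%, 11.2% and 1.15% in the same order. How the authors treated reads with several matches is not given in the sources used here, so the values of all 6 genes are uncertain to that extent. The same limit holds for the low counts of Myh6 and Myh13. Of their 50-base words 22.6% and 8.45% occur in another gene, with Myh7 and Myh8 sharing the most.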

How the data were processed

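Per the labels' protocols, libraries were made with the SMARTER mRNA-Seq kit from 1 ug of TRIzol-extracted RNA. The submitters' processing notes name the builds GRCm38 and mm10; aligner, counting tool and strandedness were not given in the sources used here. The first table, as the authors deposited it, holds raw counts of 9 libraries. For the second set the authors deposited variance-stabilised log2 values of DESeq2 for 8 libraries, with a signal column that holds the mean normalised count. The deposited tables also hold log2 fold changes and adjusted p-values of the authors' own tests. Columns were tied to groups by their names and the labels. The first set's libraries are numbered here in ascending order of the numbers in their column names. The 6 samples without a column (WT con 1, 2 labelled WT Innervated and 3 at 14 d) were not analysed here.

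The log2 values were inverted to normalised counts, whose mean differed from the deposited mean by at most 3.34e-07%. Reads recovered from them were whole within 0.05 for 100% of values. The test for counts was the quasi-likelihood F test of edgeR 4.0.16 in R 4.3.3, with TMM scaling, filterByExpr and 3 groups in 1 fit. For normalised counts it was limma-trend (limma 3.58.1) on log2(value + 1), so their fold changes are on that scale and understate those of low genes. A gene was called at an adjusted p (Benjamini-Hochberg) under 0.05. Tests were run on the whole tables and were tested on simulated data. Alternatives were DESeq2 1.42.0 (test and size factors), upper quartile scaling, limma-voom, other filters and pseudocounts, only the groups compared, a replicate block and each library left out. Leaving out innervated library 2 together with denervated WT library 1 was added after seeing the data.

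The members and the gene lists were chosen with earlier results of these data known. All 6 members were named throughout. From each list the called genes with the smallest adjusted p were named, up to 2 per direction, or the 2 smallest p in a list without calls, besides every other myosin heavy chain gene and every gene annotated in the cluster. In PAX4 KO muscle, values of 5 of these genes are given, and those that edgeR called without a filter were picked with their values in view. The motifs were searched in RefSeq promoter windows, and the shared stretch was found in these promoters themselves. Libraries of a group differed by more than counting noise, so no 2 were counted as 1.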

Additional observations from a re-analysis of the deposited data

How the results depend on the processing

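For denervation of WT muscle, the 5 called genes kept their direction under every alternative run. Myh8 also lost its call when innervated library 2 and denervated library 1 were left out together (log2 fold change 0.79, edgeR adjusted p = 0.0727). DESeq2 gave no adjusted p for Myh3 and so called 2 of 5 genes higher. No member was called in PAX4 KO against WT denervated muscle under any alternative, while the genes called over the whole table went from 3 higher and 0 lower to 127 and 65 with the DESeq2 test and to 348 and 108 with no filter on low counts. In the second set the count of members called higher fell from 1 to 0 in NRF1 KD and in double KD with the replicate block, and in double KD with only the 2 groups compared (Myh8 adjusted p = 0.0732). The cause was not tested.

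Whether same-numbered columns pair the libraries could not be shown: the correlations of deviations were 0.203, 0.0492 and 0.318 for WT innervated and denervated libraries and -0.219 to 0.141 in the second set, and 1 pair of the first set lay under the 0.1 asked of every pair. Each innervated library correlated best with the denervated one of its number, which is a hint from the data and not from the labels, and the block is therefore an alternative only. With the replicate block, 2538 genes rose and 2496 fell after denervation (2661 and 2549 without), with 3 members higher and 2 lower and Myh3 at 4.73 on the log2 scale. The block gave 513 and 117 genes in NRF1 KD (1184 and 581 without), 80 and 56 in double KD (373 and 265) and 7 and 2 between them (12 and 9), and Myh8 at 0.66 (limma adjusted p = 0.141) and 0.92 (adjusted p = 0.103). It also ended the calls of Actc1 and Mef2a in NRF1 KD (adjusted p = 0.0623 and 0.057) and of Actc1, Mef2a, Mybph, Myh14, Ncam1 and Tnni1 in double KD (adjusted p from 0.0641 to 0.143). After denervation of WT muscle, 5 of 10 slow partners were called higher with the block and 1, Myl3, lower, against 4 and 0 without. For the comparisons with PAX4 KO muscle alone, no paired analysis was possible because its columns share no numbers with the others.

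Uncalled values near 0 changed sign. In NRF1 KD, edgeR on recovered reads gave log2 fold changes of 0.029 for Myh2 and 0.049 for Myh4, the block gave 0.0097 and 0.043, and with Myh1 plus Myh4 as the denominator the ratio of Myh2 differed by 0.031. In double KD, edgeR on recovered reads gave 0.016 for Myh1. With each library left out in turn, the members called higher ranged from 0 to 1 in NRF1 KD and in double KD. Differences in share of Myh1 ranged from -5.87 to 4.99 percentage points (denervated minus innervated), -1.60 to 2.65 (PAX4 KO minus WT denervated) and -4.77 to 6.09 (PAX4 KO minus innervated). In NRF1 KD minus WT con, shares ranged from -1.45 to 2.13 points for Myh2 and -1.02 to 6.14 for Myh4. In double KD minus WT con they ranged from -2.07 to 6.57 for Myh4, and in double KD minus NRF1 KD from -0.224 to 6.27 for Myh2, -5.11 to 4.50 for Myh4 and -0.154 to 0.0937 for Myh8. Log2 fold changes ranged from -0.14 to 0.18 for Myh2 and -0.14 to 0.31 for Myh8 (PAX4 KO against WT denervated), -0.15 to 0.46 for Myh7 (PAX4 KO against innervated), -0.21 to 0.15 for Myh2 and -0.16 to 0.09 for Myh4 (NRF1 KD), -0.11 to 0.13 for Myh1 (double KD) and -0.36 to 0.14 for Myh3 (double KD against NRF1 KD). The log2 ratio of Myh2 to Myh4 ranged from -0.28 to 0.21 in NRF1 KD minus WT con, -0.15 to 0.51 in double KD minus WT con and -0.13 to 0.55 in double KD minus NRF1 KD, where Myh1 to Myh4 ranged from -0.35 to 0.13.

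Counts of all genes called also moved by over 1.5 times elsewhere: in NRF1 KD to 788 higher at a mean of at least 5 CPM, in double KD to 241 higher on the deposited log2 values and to 146 higher and 85 lower with only the 2 groups compared, and in double KD against NRF1 KD to 1 and 0 with a pseudocount of 0.1 or at a mean of at least 5 CPM and to 45 and 34 with only the 2 groups compared. Leaving out single libraries moved them further: to 1741 and 1768 after denervation of WT muscle without innervated library 1, and to 16 and 10 in PAX4 KO against WT denervated muscle without WT denervated library 1 (105 and 64 without innervated library 2 as well). In NRF1 KD they went to 595 and 292 without NRF1 KD library 2 and to 424 and 126 without library 3, in double KD to 81 and 60 without double KD library 2, and in double KD against NRF1 KD to 20 and 124 without NRF1 KD library 1, to 69 and 89 without double KD library 1 and to 1 and 0 without double KD library 3. With 3 or 2 libraries a group, single libraries decide several values above, a lone WT control left by such an omission is assumed to vary like the other groups, and Myh7 is limited by its 9 to 50 reads a library.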
